A study of Ambystoma mexicanum with 12 samples.

Results

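The axolotl limb transcribes genes that have no gene name in the tables of the study and leave almost no reads in the early blastema. Of the 99088 ids in the count table, 78 such gene ids are described here. They were chosen by their raw counts: at most 2 counts summed over the 5 blastemas, at least 10 counts in each of the 5 juvenile limbs, and no gene name other than the id itself in a table of the study. The ids have the form AMEX60DD followed by a number and come from the AmexT_v47 annotation of the axolotl genome. Of the 78 ids, 18 were listed in a table under the id itself, which is how the study wrote a gene without a name in that annotation. The other 60 were in no table, and the names in the annotation itself were not read. Moreover, 1 of the tables was held here only in its first 814 lines, so a name may exist for some of the 60 ids. The same count thresholds were met by 127 ids that did have a name, 205 ids in all. Since counts in blastema and juvenile limb chose the ids, the absence from the blastema is a description and was not tested.

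A limb blastema is the mound of dividing, undifferentiated cells that gathers under the wound epidermis after amputation and from which the missing limb is rebuilt. The intact limb is mostly skeletal muscle, skin, bone and connective tissue, with nerves and blood cells. Muscle fibers hold large amounts of RNA for the sarcomere, the contractile unit made of myosin and actin filaments anchored at the Z-disc, and for the sarcoplasmic reticulum, which stores and releases calcium. In the axolotl, new limb muscle arises from satellite cells, and differentiated fibers appear only after the blastema has grown and patterned. Salamander genomes are very large and repeat-rich, and many transcribed ids have no assigned relative in other vertebrates.

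RNA sequencing covered 12 libraries from a captive colony descended from wild axolotls of Lake Xochimilco. Juvenile limbs came from 5 animals aged 8 months, blastemas from those same 5 animals 10 days after amputation (replicates 2, 3, 5, 6 and 8 in both groups), and aged limbs from 2 other animals aged 8 years, which formed no blastema. The labels give no transgene and no drug treatment for any group. The sources disagree on the limb, named as the right forelimb, the inferior limbs or the posterior leg, and with 2 animals in the aged group each aged value rests on very few limbs.

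The libraries held 12975883 to 20663627 counts. The labelled tissues were checked with a list of 68 muscle genes, most of which the study itself had listed as lower in the blastema. Their summed level was 15577 to 69272 CPM, the counts of an id scaled to a fixed library size, in the juvenile limbs, 32786 and 4587 CPM in aged limbs 1 and 2, and 259 to 519 CPM in the blastemas. All of these libraries therefore held RNA of the listed genes, the blastemas the least, and aged limb 2 held less than any other limb. The 43 sarcomere genes of the list summed to 83.3 to 334 CPM in the blastemas and 13218 to 57905 CPM in the juvenile limbs. The other 25 genes, of membrane, calcium and energy, summed to 168 to 266 CPM and 2359 to 11367 CPM. The list sum thus stands for a different mix of genes in blastema and limb. For the 6 bone and fat genes both aged limbs lay below the juvenile range of 48.9 to 126.021 CPM. Aged limb 1 was just under it at 47.6 CPM and aged limb 2 far under it at 10.95 CPM. Keratin genes summed to 10270 CPM in aged limb 2, within the juvenile range of 5953 to 17060 CPM.

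In the blastemas, 55 of the 78 ids had no count at all, 12 had 1 count and 11 had 2 counts. Each blastema library held 5 to 8 counts over all 78 ids together, against 7629 to 14587 counts in each juvenile limb and 11909 and 2072 counts in aged limbs 1 and 2. After TMM scaling the summed level of the ids was 0.235 to 0.670 CPM in the blastemas, and 700, 351, 784, 468 and 918 CPM in juvenile limbs 2, 3, 5, 6 and 8. Folds between limb and blastema were taken from counts pooled over each group and divided by the pooled scaled totals, not from group means. For the 55 ids without a blastema count, the pooled juvenile level was 21.5-fold to 1634-fold the limit set by 3 counts over the 5 blastemas. The median was 69.3-fold. Such bounds cover counting error only. In the edgeR fit the 75 ids that passed the filter on low counts were all called lower in the blastema, where 5.6% of the 19961 ids tested were called lower. The rule used this contrast, and nothing is read from that count.

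The edges of the rule were close to other ids. Just outside it, 10 ids without a name in the tables had 3 blastema counts and 12 had a lowest juvenile count of 9. Inside the rule, 4 ids had a lowest juvenile count of 10. AMEX60DD011221 was the weakest id included, with 2 blastema counts and 74 juvenile counts in total. It was measured at 0.782, 0.644, 0.802, 0.593 and 1.38 CPM in juvenile limbs 2, 3, 5, 6 and 8, and at 0.578 and 0.924 CPM in the aged limbs. Its pooled juvenile level was 28.8-fold its pooled blastema level, with a counting interval at 95% confidence of 7.70 to 242.

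**Figure D1:**
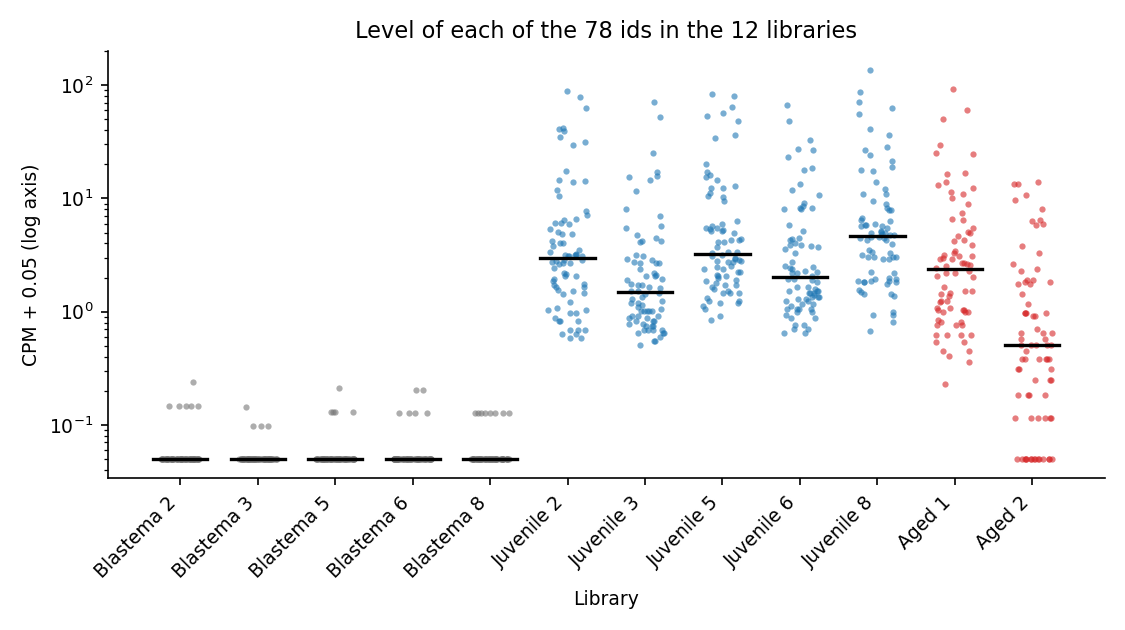
Level of each of the 78 ids in the 12 libraries, in CPM plus 0.05 on a log axis. Each point is 1 id and each bar the median over the 78 ids. The blastemas lie at or near 0 by the choice of ids, and aged limb 2 lies below the other limbs, with 15 ids at 0.

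Most of the ids were weakly expressed and a few were not. The juvenile mean ranged from 0.841 to 72.8 CPM with a median of 2.85 CPM. Of the 78 ids, 18 lay above 10 CPM, 58 between 1 and 10 CPM and 2 under 1 CPM, and the 7 highest held 50.8% of the summed level. These levels are counts of reads and were not divided by transcript length, which was not used here, so they order the ids by reads and not by transcripts.

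AMEX60DD051962 had the most reads. It had no count in any blastema and was measured at 89.5, 25.2, 80.8, 32.5 and 136 CPM in juvenile limbs 2, 3, 5, 6 and 8, and at 16.5 and 1.72 CPM in aged limbs 1 and 2. Both aged limbs lay below every juvenile limb. Its juvenile mean was 72.8 ± 45.3 CPM (SD, n = 5), and its pooled juvenile level was 1634-fold the blastema limit.

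AMEX60DD043916 had 2 blastema counts, 1 in each of 2 libraries. It was measured at 29.4, 70.4, 56.4, 67.2 and 10.8 CPM in juvenile limbs 2, 3, 5, 6 and 8, so that the limb with the most muscle RNA, juvenile limb 8, had the least of it. The aged limbs held 0.355 and 9.63 CPM, both under the lowest juvenile limb. Its juvenile mean was 46.8 ± 25.8 CPM (SD, n = 5). Its pooled juvenile level was 1667-fold its pooled blastema level, with a counting interval of 461 to 13769.

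The next 4 ids by reads had no blastema count and were highest in juvenile limbs 5 or 8. AMEX60DD007427 was measured at 41.9, 17.2, 83.2, 23.3 and 55.5 CPM in juvenile limbs 2, 3, 5, 6 and 8 and at 50.7 and 3.76 CPM in the aged limbs. AMEX60DD030551 was measured at 62.3, 11.7, 53.8, 11.8 and 71.3 CPM, and at 24.4 and 2.24 CPM in the aged limbs. In both, aged limb 1 lay within the juvenile range and aged limb 2 below it. AMEX60DD049436 was measured at 39.5, 14.5, 48.5, 17.9 and 86.6 CPM in the juvenile limbs and at 60.4 and 10.8 CPM in the aged limbs. AMEX60DD035528 was measured at 34.5, 15.7, 64.8, 26.97 and 63.5 CPM, and at 93.1 and 13.4 CPM in the aged limbs. For AMEX60DD035528 aged limb 1 exceeded every juvenile limb, and for both of these ids aged limb 2 was below every juvenile limb.

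The level of the ids varied among the juvenile limbs. The coefficient of variation over the 5 limbs had a median of 55.1% and ranged from 20.2% to 97.6%. The highest juvenile limb exceeded the lowest by a median of 4.62-fold, from 1.66-fold to 65.01-fold. Of the ids, 47 were highest in juvenile limb 8 and 19 in juvenile limb 5. The lowest limb was juvenile limb 3 for 48 ids and juvenile limb 6 for 13. The muscle list ranked these limbs in the same order, with 69272 CPM in limb 8, 49514 in limb 5, 32196 in limb 2, 20251 in limb 6 and 15577 in limb 3. The spread and the counts of highest and lowest limbs were not taken over all ids. Whether they are particular to the ids described here was therefore not tested. In such bulk samples, fewer cells of a type and less RNA per cell cannot be told apart.

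Covariation with muscle content was measured over the 7 limb libraries, leaving out the blastemas, as Pearson's r between log2(CPM + 0.5) of an id and the log2 of the summed CPM of the muscle list. The median r of the 78 ids was 0.82, with quartiles of 0.61 and 0.93, whereas the median over all 17334 ids with at least 10 counts in each juvenile limb was -0.04. An r of at least 0.8 was reached by 45 of the 78 ids (57.7%), against 6.13% of the 17334 ids. An r below 0 was found for 8 of the 78 (10.3%), against 52.5% of the 17334 ids. The median Spearman's rho was 0.79, against -0.04 over the 17334 ids. Among 105 named ids that met the same count thresholds and were in none of the marker lists, the median r was 0.94 and 81.0% reached 0.8. Names came only from the tables of the study, which left out 60 of the 78 ids. The contrast is thus of listed with mostly unlisted ids, not of named with unnamed genes. The 18 ids listed under their own id had 15 at or above 0.8, and the 60 ids in no table had 30, but without juvenile limb 8 and aged limb 2 these counts were 6 (33.3%) and 19 (31.7%).

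**Figure D2:**
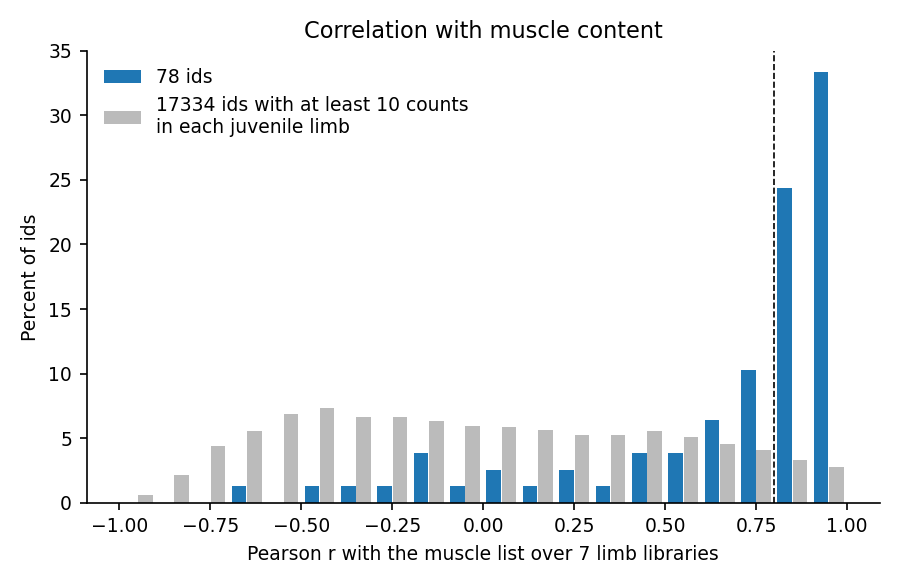
Share of ids, in percent, by Pearson's r with the muscle list over the 7 limb libraries, for the 78 ids and for all 17334 ids with at least 10 counts in each juvenile limb. The dashed line marks 0.8, which 57.7% of the 78 ids and 6.13% of all these ids reached.

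With 7 libraries, few single correlations passed a test over all ids. An exact permutation test over the orders of the libraries, two-sided and with Benjamini-Hochberg adjustment over the 17334 ids, called 8 of the 78 ids positively correlated, where 0.837% of all ids were called. At an unadjusted exact p under 0.05 the count was 47 of 78, where 12.7% of all ids passed. No rho of the 4 ids with the highest r passed the adjusted threshold. The relation leaned on the extreme libraries for many ids. Without juvenile limb 8 and aged limb 2, the 2 libraries farthest from the median muscle level, the median r was 0.66 and 25 of the 78 ids reached 0.8, against 6.17% of all ids. Of the 45 ids at or above 0.8 with all 7 libraries, 21 kept that value and 24 did not.

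The 4 ids with the highest r followed muscle over the whole range. AMEX60DD026997 was measured at 4.79, 2.34, 5.88, 3.50 and 8.93 CPM in juvenile limbs 2, 3, 5, 6 and 8 and at 4.62 and 0.528 CPM in the aged limbs. Its r was 0.99 (exact permutation p = 0.00040, adjusted p = 0.046), its rho was 0.96 (exact permutation p = 0.0028, adjusted p = 0.16), and r without the 2 libraries was 0.98. AMEX60DD001869 was measured at 14.4, 5.61, 34.2, 8.06 and 36.2 CPM and at 11.3 and 0.924 CPM in the aged limbs. Its r of 0.99 had the same exact permutation p and adjusted p, and r without the 2 libraries was 0.96. Both therefore kept a close relation in the 5 middle libraries.

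AMEX60DDU001012508 lies on a contig outside the numbered series of ids. It was measured at 14.2, 4.05, 14.4, 8.60 and 28.7 CPM in juvenile limbs 2, 3, 5, 6 and 8 and at 10.0 and 0.924 CPM in the aged limbs, with an r of 0.98 that missed the threshold (exact permutation adjusted p = 0.056) and 0.89 without the 2 libraries. AMEX60DD046974 was measured at 4.84, 1.24, 10.5, 4.33 and 12.0 CPM and at 4.98 and 0 CPM in the aged limbs. Its r was 0.98 (exact permutation p = 0.00020, adjusted p = 0.046) and its order over the 7 libraries was that of the muscle list. Without the 2 libraries its r was 0.92.

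**Figure D3:**
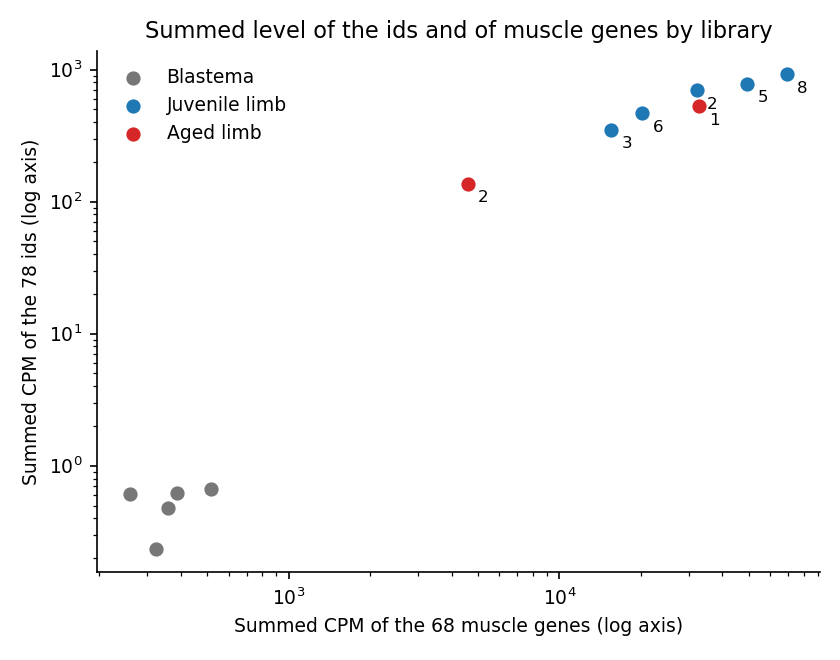
Summed CPM of the 78 ids against summed CPM of the 68 muscle genes in each of the 12 libraries, both on log axes, with the replicate number beside each limb. The summed level of the ids ran from 137 CPM in aged limb 2 to 918 CPM in juvenile limb 8, in the order of muscle RNA except for aged limb 1, which held 529 CPM against 700 CPM in juvenile limb 2 at slightly more muscle RNA, and the 5 blastemas lie apart at or below 0.670 CPM.

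The summed level grew less steeply than muscle. Per 1000 CPM of the muscle list, the 78 ids held 21.7, 22.5, 15.8, 23.1 and 13.2 CPM in juvenile limbs 2, 3, 5, 6 and 8, and 16.1 and 29.8 CPM in aged limbs 1 and 2. In the blastemas they held 0.727 to 2.37 CPM per 1000 CPM of the muscle list, whose mix of genes there differed from that in the limbs. The limbs richest in muscle thus had the lowest ratio among the limbs and aged limb 2 the highest. Every blastema was below every limb, a gap that the choice of ids helps to set. Among the juvenile limbs a few high ids weigh on this ratio. AMEX60DD043916 and AMEX60DD012489 held 70.4 and 51.9 of the 351 CPM in juvenile limb 3. In juvenile limb 8 they held 10.8 and 2.20 of the 918 CPM. The ratio without them was not taken.

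Muscle was not the only tissue measure that moved this way. The bone and fat list correlated with the muscle list over the 7 limbs at r = 0.95, and the median r of the 78 ids with it was 0.80. The median r was 0.59 with 6 myelin and nerve genes, 0.29 with 10 keratin genes, 0.19 with 10 genes of mucus and skin ion transport, and -0.18 with 10 immune genes. The parts of muscle, bone and fat in these values cannot be told apart over 7 libraries.

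An r under 0.8 was found for 33 ids, of which 25 had an r from 0 to 0.8 and 8 an r below 0. The lowest r belonged to AMEX60DD022615, measured at 0.586, 1.84, 2.34, 0.889 and 0.881 CPM in juvenile limbs 2, 3, 5, 6 and 8 and at 0.400 and 5.81 CPM in the aged limbs. Its r of -0.68 did not pass the test (exact permutation p = 0.088) and was 0.00 without the 2 libraries, so it rested on them. AMEX60DD028390, with an r of -0.47, was measured at 0.538, 1.61, 3.07, 1.24 and 1.82 CPM in the juvenile limbs and at 2.93 and 6.33 CPM in the aged limbs. Both were highest in aged limb 2, the limb with the least muscle RNA.

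AMEX60DD010004 was among the steadiest ids, at 2.10, 2.62, 2.21, 4.27 and 1.76 CPM in juvenile limbs 2, 3, 5, 6 and 8 and 3.07 and 2.57 CPM in the aged limbs. Its r with muscle was -0.39 and its r with the immune list was 0.89, the highest library being juvenile limb 6 for both. The named gene most like it over the 7 limbs, of 1131 searched, was CTSS (r = 0.95), which encodes cathepsin S, a lysosomal protease of antigen-presenting cells. AMEX60DD018987, singled out after its values were seen, had an r of 0.46 with muscle and 0.96 with the myelin and nerve list, at 0.873 to 1.51 CPM in the juvenile limbs. With 7 libraries and many genes searched, such likeness is a description.

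A set of 6 ids, grouped after their values were seen, did not follow the order of muscle RNA among the juvenile limbs and had no count in aged limb 2. That shared 0 enters the r and rho of each pair below, so these values only describe the grouping. AMEX60DD012489 was measured at 79.4, 51.9, 11.2, 48.3 and 2.20 CPM in juvenile limbs 2, 3, 5, 6 and 8 and at 2.13 and 0 CPM in the aged limbs. AMEX60DD012506 was measured at 40.9, 15.4, 2.67, 27.4 and 0.629 CPM and at 3.11 and 0 CPM in the aged limbs. Their r with each other was 0.95 (rho 0.86) and both were lowest among juvenile limbs in limb 8, where most of the 78 ids were highest. AMEX60DD012506 had the widest juvenile spread of all, a coefficient of variation of 97.6%.

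AMEX60DD027767 was measured at 31.5, 3.03, 12.2, 18.6 and 3.33 CPM in juvenile limbs 2, 3, 5, 6 and 8, and AMEX60DD027764 at 7.09, 4.41, 4.08, 3.68 and 1.70 CPM. In aged limb 1 they stood at 10.9 and 1.47 CPM. Their numbers are 3 apart, and their r with each other was 0.84, with a rho of only 0.57. AMEX60DD032487 was measured at 11.7, 7.95, 5.41, 13.3 and 17.7 CPM in the juvenile limbs and at 7.42 and 0 CPM in the aged limbs. AMEX60DD032486, its neighbour by number, was measured at 4.15, 2.71, 1.14, 8.24 and 6.42 CPM and at 3.38 and 0 CPM in the aged limbs. The r of the pair was 0.95 (rho 0.93). In this last pair juvenile limb 5, second in muscle RNA, was the lowest juvenile limb. Their r with muscle was 0.82 and 0.65 with all 7 libraries, and -0.51 and -0.56 without juvenile limb 8 and aged limb 2.

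The aged limbs were not used to choose the ids, although the juvenile limbs they are compared with were. None of the 78 ids was called between aged and juvenile limb by edgeR's quasi-likelihood test (absolute log2 fold change above 1, adjusted p under 0.05), where 0.103% of the 24316 ids tested were called and 0.0494% were called lower. At an unadjusted edgeR p under 0.05 there were 20 of the 78 ids, where 7.48% of all ids tested passed. DESeq2 called 3 of the 78, where it called 1.13% of the 26931 ids it tested. They were AMEX60DD002499 and AMEX60DD010829, called lower, and AMEX60DD024508, called higher. For AMEX60DD002499 the DESeq2 log2 fold change was -2.64 (adjusted p = 0.045). It was measured at 0.977 and 0.132 CPM in the aged limbs against 1.47 to 5.62 CPM in the juvenile limbs. The log2 fold change was below 0 for 65 of the 78 ids, against 52.9% of all ids tested, and its median was -1.22 against -0.04 over all ids tested.

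The 2 aged limbs differed from each other. Aged limb 1 lay within the juvenile range for 46 ids, below every juvenile limb for 24 and above every one for 8, where 16.1% and 18.2% of the 17334 ids lay below and above. Aged limb 2 lay below every juvenile limb for 61 ids and above every one for 4, where 21.6% and 21.7% of all ids did. In aged limb 2, 15 of the 78 ids had no count, against 0.652% of the 17334 ids, while none was at 0 in aged limb 1. The ratio to the juvenile mean had a median of 0.694 in aged limb 1 and 0.106 in aged limb 2, and 68 ids were lower in aged limb 2. These medians and this count were not taken over all ids. Without aged limb 2 the median log2 fold change was -0.50, and without aged limb 1 it was -3.26.

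Muscle RNA moved with this difference, since the muscle list stood at 32786 CPM in aged limb 1 and 4587 CPM in aged limb 2. With the log2 muscle level as a covariate, an alternative chosen after the data were seen, the median log2 fold change of the 78 ids was -0.49. It was -0.07 over all ids tested. Of the 78, 56 were below 0 against 55.8% of all ids tested, which again had no such minimum in the juvenile limbs. None of the 78 was called in that fit. Aged limb 1 had nearly the muscle level of juvenile limb 2, at 32786 and 32196 CPM, and these 2 libraries can be set side by side. The median log2 difference of the 78 ids, aged limb 1 minus juvenile limb 2, was -0.26, with 50 of 78 below 0 (64.1%), against 0.00 and 49.9% over the 17334 ids. More than 4-fold lower in aged limb 1 were 5 of the 78 (6.41%), against 2.59% of all ids, and 1 was more than 4-fold higher. This is a comparison of 2 libraries with no replicate check.

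**Figure D4:**
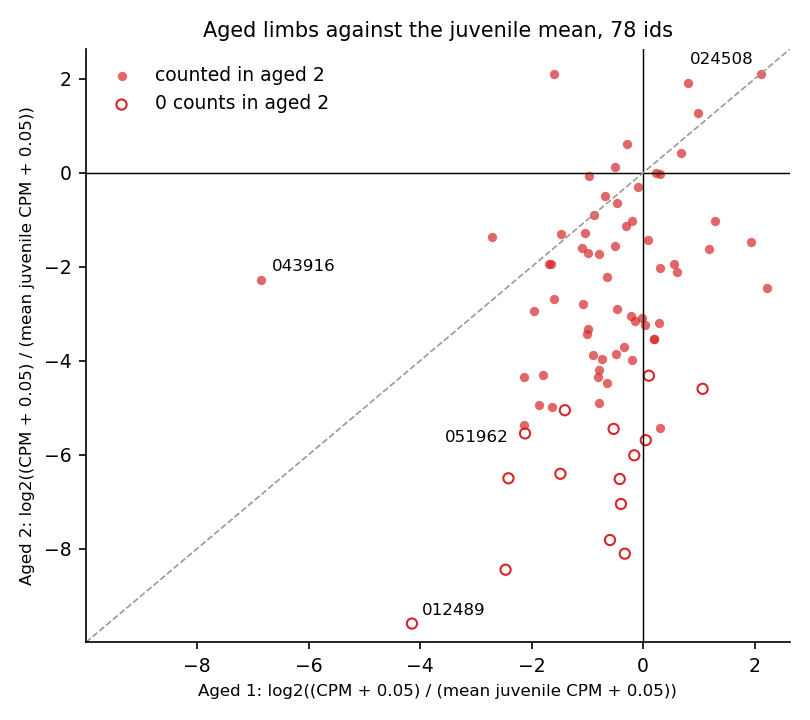
Log2 ratio of aged limb 1 (horizontal) and aged limb 2 (vertical) to the juvenile mean for each of the 78 ids, after adding 0.05 CPM. Open circles mark the 15 ids without a count in aged limb 2, and the dashed line marks equal ratios in both aged limbs. Of the 78 ids, 68 are lower in aged limb 2 than in aged limb 1, a share that was not taken over all ids.

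Both aged limbs lay below every juvenile limb for 21 of the 78 ids. The share was 5.62% of the 24316 ids tested, which had no such minimum in the juvenile limbs. The lowest ratio of aged to juvenile mean was that of AMEX60DD012489, 36.2-fold lower, followed by AMEX60DD010829 and AMEX60DD012506, each 11.2-fold lower. The edgeR log2 fold change of AMEX60DD012489 was -5.13 ± 1.66 (SE, adjusted p = 0.53). AMEX60DD010829 was measured at 2.74, 0.965, 6.28, 1.54 and 10.9 CPM in juvenile limbs 2, 3, 5, 6 and 8 and at 0.80 and 0 CPM in the aged limbs, with an r of 0.91 with muscle. Its edgeR log2 fold change was -3.39 ± 1.31 (SE, adjusted p = 0.62), and DESeq2 called it lower (log2 fold change -3.45, adjusted p = 0.032). For AMEX60DD043916 and AMEX60DD051962 the edgeR log2 fold changes were -3.28 ± 1.17 (SE, adjusted p = 0.58) and -3.01 ± 0.98 (SE, adjusted p = 0.53). Leaving out the aged limb with the higher level made these values larger in size. AMEX60DD043916 was at -7.0 without aged limb 2. Without aged limb 1, AMEX60DD051962 was at -5.44, AMEX60DD012489 at -12.41 and AMEX60DD010829 at -9.30. The last pair was fitted against a single library without a count, where the fitted value is no bound. Leaving out the other aged limb made the values smaller in size. AMEX60DD043916 was at -2.32 without aged limb 1. Without aged limb 2, AMEX60DD051962 was at -2.12, AMEX60DD012489 at -4.17 and AMEX60DD010829 at -2.44. With muscle as a covariate AMEX60DD043916 was at -6.12, AMEX60DD051962 at -1.98 and AMEX60DD010829 at -2.11, and none was called in these fits. AMEX60DD043916, AMEX60DD051962 and the pair AMEX60DD012489 and AMEX60DD012506 were also among the 5 ids more than 4-fold lower in aged limb 1 than in juvenile limb 2, at 0.355 against 29.4 CPM for AMEX60DD043916 and 16.5 against 89.5 CPM for AMEX60DD051962.

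AMEX60DD043916 was 1 of 10 ids that were lower in aged limb 1 than in aged limb 2, with 0.355 and 9.63 CPM. The named genes most like it over the 7 limbs were MMP13.1 (r = 0.95), whose relatives encode the collagenase matrix metalloproteinase 13, BGLAP (r = 0.92), the gene of the bone matrix protein osteocalcin, and DDX55 (r = 0.91), named for an RNA helicase. Its r with the bone and fat list as a whole was 0.23. MMP13.1 had 31002 counts in the blastemas and 1749 in the juvenile limbs, BGLAP 0 and 598, and DDX55 607 and 859. The rule kept AMEX60DD043916 near 0 in the blastemas, so likeness was measured among limbs only.

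Both aged limbs lay above every juvenile limb for 2 ids, where 6.97% of all ids tested did, again with no such minimum in the juvenile limbs. AMEX60DD024508 was measured at 3.03, 2.02, 2.41, 1.9 and 6.73 CPM in juvenile limbs 2, 3, 5, 6 and 8 and at 14.04 and 13.92 CPM in the aged limbs. It was the only 1 of the 78 ids that was nearly equal in both aged limbs and more than 4-fold above the juvenile mean, at 4.35-fold. Its edgeR log2 fold change was 2.09 ± 0.47 (SE, unadjusted p = 0.0014, adjusted p = 0.25), the smallest adjusted p of the 78, and DESeq2 called it higher (log2 fold change 2.09, adjusted p = 0.018). The other was AMEX60DD002622, with 6.58 and 7.98 CPM in the aged limbs against 0.873 to 5.85 CPM in the juvenile limbs. AMEX60DD028390 and AMEX60DD054541 had the next highest ratios, 2.79 and 2.49, but the first overlapped with the juvenile limbs in aged limb 1, and the second, at 0.598 to 2.01 CPM in the juvenile limbs, was at 6.35 and 0.198 CPM in the aged limbs. The edgeR log2 fold changes were 1.45 ± 0.59 (SE, adjusted p = 0.64) and 1.31 ± 0.90 (SE, adjusted p = 0.82).

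The count table gave no coordinates, and ids with consecutive numbers were taken as neighbours on the assumption that the numbers follow the order along the genome. The positions the study lists bear on this for only 1 pair of consecutive ids, and 1 of them lies within the span of the other. Of the 78 ids, 2 (2.56%) were next to another of them, AMEX60DD032486 and AMEX60DD032487. Of the 17334 ids with at least 10 counts in each juvenile limb, 0.237% had 1 of the 78 beside them. Within 5 id numbers of another of them were 8 of the 78 (10.3%), against 1.14% of the 17334 ids. An id that met the same count thresholds, named or not, was next to 7 of the 78 (8.97%), against 0.687% of all ids. An id called lower in the blastema by edgeR was next to 15 (19.2%), against 3.5%, and an id of the muscle list was next to 4 (5.13%), against 0.231%. The setting of featureCounts for strand and for reads that overlap several ids was not given in the sources used here, so reads of an id and of an adjacent gene cannot be fully separated.

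In 4 cases described here the neighbour was a named gene that itself met the thresholds. AMEX60DD006809 lay beside TEAD4.1 and N332_12043 and 2 numbers from TEAD4. TEAD4 encodes a DNA-binding factor of the Hippo pathway that is active in muscle differentiation. AMEX60DD006809 was measured at 5.91, 2.67, 12.8, 10.7 and 18.8 CPM in the juvenile limbs and at 8.89 and 0.594 CPM in the aged limbs. Its r was 0.98 with TEAD4.1, 0.79 with TEAD4 and 0.74 with N332_12043, with rho of 0.89, 0.57 and 0.71. Within this run of 4 ids it was thus closest to TEAD4.1.

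AMEX60DD007644 was next to MYF6.1 and 2 numbers from MYF6. MYF6 encodes a myogenic regulatory factor of late muscle differentiation. AMEX60DD007644 was measured at 1.03, 1.38, 1.20, 1.42 and 3.02 CPM in juvenile limbs 2, 3, 5, 6 and 8. In the aged limbs it was at 0.578 and 0 CPM. Its r was 0.74 with MYF6.1 and 0.54 with MYF6, but Spearman's rho was only 0.36 and 0.25. AMEX60DD037224 was next to TMEM255A, with an r of 0.93 (rho 0.93). It ran from 2.37 to 5.73 CPM in the juvenile limbs, with 4.13 and 0.264 CPM in the aged limbs. AMEX60DD029867 was next to GLS2, the gene of a mitochondrial glutaminase, with an r of 0.72 (rho 0.57). It ran from 0.735 to 2.89 CPM in the juvenile limbs, with 1.02 and 0.0660 CPM in the aged limbs. The neighbours TEAD4.1, MYF6.1, TMEM255A and GLS2 had 0 to 2 blastema counts, and all 4 ids were lower in aged limb 2 than in any juvenile limb.

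**Figure D5:**
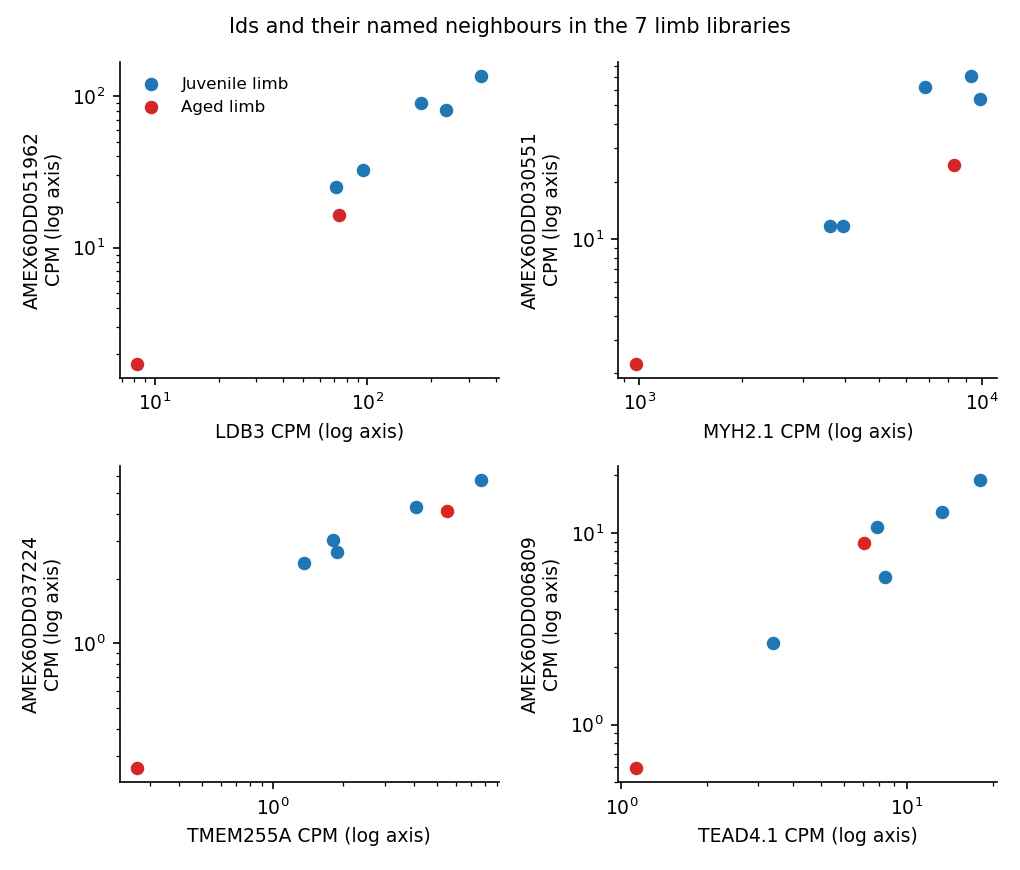
CPM of 4 ids (vertical) against CPM of the named gene 1 id number away (horizontal) in the 5 juvenile and 2 aged limbs, on log axes. The r between log2(CPM + 0.5) values was 0.99 for LDB3, 0.94 for MYH2.1, 0.93 for TMEM255A and 0.98 for TEAD4.1.

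Among the highest ids, AMEX60DD051962 and AMEX60DD030551 lay beside muscle genes that kept some counts in the blastema, and these pairs were chosen after their values were seen. AMEX60DD051962, the id with the most reads, was next to LDB3, which encodes a Z-disc protein, and its r with LDB3 was 0.99 (rho 0.93). LDB3 had 15785 counts in the juvenile limbs and 23 in the blastemas. AMEX60DD030551 was next to MYH2.1, named for a myosin heavy chain of fast fibers, with an r of 0.94 (rho 0.79) and with 581171 juvenile and 388 blastema counts for MYH2.1. On its other side lay AMEX60DD030550, 1 of the 10 ids just outside the rule, with 438 juvenile counts, 3 blastema counts and an r of 0.95 with AMEX60DD030551.

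AMEX60DD016917, 1 of the 8 ids whose correlation with muscle passed the test and also chosen after its values were seen, lay next to CASQ1, the gene of the calcium-binding protein calsequestrin of fast muscle. It was measured at 1.17, 0.644, 3.28, 1.13 and 4.47 CPM in juvenile limbs 2, 3, 5, 6 and 8 and at 1.47 and 0 CPM in the aged limbs. Its r was 0.95 with CASQ1 (rho 0.89). CASQ1 had 36989 juvenile and 4 blastema counts. AMEX60DD049436 lay 2 numbers from SLN, the gene of sarcolipin, which inhibits the calcium pump of the sarcoplasmic reticulum, and their r was 0.77 (rho 0.75). SLN had 5729 juvenile and 0 blastema counts. With the muscle list as a whole, the r was 0.92 for AMEX60DD051962, below its r with LDB3. It was 0.96 for AMEX60DD030551, 0.97 for AMEX60DD016917 and 0.91 for AMEX60DD049436, each above the r with the named neighbour. The median over the 78 ids was 0.82. LDB3 and MYH2.1 are themselves in the muscle list, so for their neighbours the r with the list includes the named gene. Closeness in number and shared muscle content therefore cannot be told apart.

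Not every id followed the named gene beside it, as 2 ids chosen in the same way show. AMEX60DD002656 lay next to ADIPOQ, the gene of the fat hormone adiponectin, with an r of 0.46 (rho 0.36), and AMEX60DD010274 next to PLXDC1 with an r of 0.02 (rho 0.32). Of the 78 ids, 5 lay on contigs outside the numbered series, where 42276 of all 99088 ids did. The share among ids with at least 10 counts in each juvenile limb was not taken. AMEX60DD006124 was the only 1 listed under gene ontology terms in the tables, for regulation of transmembrane transport and small molecule metabolism.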

How the data were processed

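RNA of 12 axolotl libraries was sequenced from a stranded kit. The authors trimmed reads with Trimmomatic 0.39, mapped them to the AmexG_v6.0-DD genome (STAR 2.7.9a) and deposited raw counts per gene of AmexT_v47 made with featureCounts. Its strand and overlap settings are not given in the sources used here. The 12 deposited library tables equalled the joint table, which was used. The authors' tables of names served only to name ids.

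Counts were scaled by TMM and tested with edgeR 4.0.16 (quasi-likelihood, filterByExpr, Benjamini-Hochberg adjustment over all ids tested). DESeq2 1.42.0 was an alternative. An id was called where its adjusted p was under 0.05 and its log2 fold change exceeded 1 in size. CPM used TMM-scaled totals. Correlations used log2(CPM + 0.5) over 7 limb libraries, with exact permutation over all 5040 orders. The tests were tested on simulated data. The aged and the blastema comparison share the juvenile limbs.

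Blastemas and juvenile limbs of 1 number were taken to come from the same animal, on the basis of the shared number in their titles. Their deviations from the group means correlated at a median r of 0.16 (0.064 to 0.18) for equal numbers and -0.04 for different numbers. The shared number as a replicate block was an alternative.

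Other alternatives changed the count thresholds, scaling, filter, muscle measure, offset, neighbour distance and libraries. The 78 ids, the marker lists and the tests were chosen with earlier results of these data known. Named ids were the 6 with the most juvenile reads, the 4 highest and 4 lowest by r with muscle, those called in the aged limb, the 3 highest and 3 lowest by ratio of aged to juvenile mean, runs of consecutive numbers, ids next to a named id that met the thresholds, and the weakest id. Exceptions are stated where they occur. Results for some neighbouring genes, and for ids that need them, are not reported here.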

Additional observations from a re-analysis of the deposited data

Results flagged for a closer look

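In groups of 5 libraries, 43 sets of values were examined for 1 library lying far from the other 4 (Dixon's gap over range above 0.71), and 5 were found. Chance gives about 1 in 20. AMEX60DD024508 was measured at 6.73 CPM in juvenile limb 8, against at most 3.03 CPM in the other juvenile limbs. AMEX60DD007644 was measured at 3.02 CPM in juvenile limb 8, against at most 1.42 CPM in the others. AMEX60DD011221 was measured at 1.38 CPM in juvenile limb 8, against at most 0.802 CPM in the others. Juvenile limb 8 was also the limb with the most muscle RNA, and its part in these values was not tested. The immune list summed to 281 CPM in juvenile limb 6, against at most 172 CPM in the other juvenile limbs. The myelin and nerve list summed to 253 CPM in blastema 8, against at most 56.7 CPM in the other blastemas.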

How the results depend on the processing

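The number of ids depended on the rule's limits, with 143 at a minimum of 5 counts in each juvenile limb and 37 at a minimum of 20, and it was 83 to 114 with 1 library left out. With the replicate block, 75 ids were called lower in the blastema, as without it. No paired analysis was possible for the aged limbs because they came from other animals. Between aged and juvenile limb, 15 ids were called with no filter on low counts, 14 of them lower, and 3 with DESeq2, beside 897 of 62161 and 303 of 26931 over all ids tested. Without the filter AMEX60DD051962 (-2.94), AMEX60DD043916 (-3.28), AMEX60DD012489 (-5.08), AMEX60DD010829 (-3.32) and AMEX60DD012506 (-3.41) were called lower and AMEX60DD024508 (2.13) higher on the log2 scale. The median log2 fold change was -0.49 with muscle as a covariate and ran from -3.26 to -0.50 with 1 library left out, the ends being the fits without aged limb 1 and without aged limb 2. That of AMEX60DD054541 ran from -2.73 without aged limb 1 to 2.28 without aged limb 2. With 1 aged limb left, that limb is assumed to vary like the juvenile limbs. Without juvenile limb 8 and aged limb 2 the count of ids with r of at least 0.8 was 25 and the median r was 0.66, and the count was 31 without aged limb 2 alone. Library totals in place of TMM kept the count at 45 but moved the median r of all ids from -0.04 to 0.21. Within 5 id numbers, 8 ids (10.3%) had another of the 78, against 1.14% of all ids with at least 10 counts in each juvenile limb. The cause of these shifts was not tested. At 10 to 20 counts per limb, counting error limits the r and the fold of the weakest ids, and a count of 0 in 1 library does not show absence.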
